A study of Arabidopsis thaliana with 16 samples.

Results

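The mitochondrion-encoded genes of Arabidopsis thaliana were followed in germinating seeds of sweet1, a T-DNA line in the Col-0 background with an insertion in SWEET1, which encodes a sugar transporter that carries glucose (Glc) across membranes. Members were all genes of the expression files whose locus identifier begins with ATMG, which gave 122 of 27655 genes, beside 88 plastid-encoded and 27445 nuclear genes. A product of known function was assigned to 38 members, and the other 84 were open reading frames (ORFs) of unknown function. Whole seeds of the line were kept wet and cold for 3 d at 4 °C, moved to 22 °C in constant light, transferred 24 h after imbibition and collected 6 h later. The 4 treatments were 60 mM Glc, 5 µM abscisic acid (ABA, the hormone that holds back germination), both together (ABA + Glc) and a control medium with neither. Each treatment had 4 libraries labelled as biological replicates, 16 in all, and every library was from sweet1, so the mutation itself was not compared here. Nothing in the labels gives separate harvests or plants, so the p-values below measure the spread between these libraries.

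Plant mitochondria keep a genome of their own that encodes some subunits of the respiratory complexes and of ATP synthase, proteins for cytochrome c maturation, part of the mitochondrial ribosome and a maturase, while most mitochondrial proteins are encoded in the nucleus. Their transcripts are often made as units of several genes, are trimmed and spliced, some from separate pieces (nad1, nad2 and nad5), and have many C bases changed to U by RNA editing. In plant mitochondria a poly(A) tail marks an RNA for decay rather than for translation, and these libraries were made with a kit that captures poly(A) RNA. As Arabidopsis seeds germinate, mitochondria mature and respiration starts.

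The values were deposited as TPM, a transcript abundance unit in which values are divided by transcript length, so that levels may be compared between genes. They summed to between 951008 and 1053766 per library and had been rescaled in a way that the sources used here do not give. No read counts were used, so the depth behind a value is unknown, and a value of 0 is given below only as listed at 0. ABA replicate 3 and ABA + Glc replicate 3 stayed out of the main comparisons, because the study's table of changed genes has no column for either, and their values are given in parentheses. The study's methods speak of removed outliers without naming them. The ABA-responsive gene LTI65 averaged 8.80 ± 1.48 TPM with Glc, 361.8 ± 31 TPM with ABA, 189.1 ± 12.9 TPM with ABA + Glc and 8.457 ± 1.67 TPM in control seeds (SD, n = 4, 3, 3 and 4). The seed storage gene CRA1 averaged 237.0 TPM with Glc, 1631.0 TPM with ABA, 1278.0 TPM with ABA + Glc and 156.5 TPM in control seeds, so seed-stage markers differed between the groups compared below, and their part in the differences of members was not tested. All samples were whole seeds, in which fewer mitochondria or cells of a type and less mitochondrial RNA per cell cannot be told apart. A smaller share of mitochondrial RNA with a poly(A) tail cannot be told apart from these either.

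Sequences are given for the members on which the results turn, from the TAIR10.1 RefSeq mitochondrial genome (MT), matched by name, since the transcript set used for quantification may differ in its ends. They show the shared bases, the nearby RNA genes and the nuclear copies that bear on each value.
ORF107A, the first 300 of its 324 bases (MT 143781 to 144104, plus strand), with the 185 bases that lie opposite the large ribosomal RNA gene rrn26 in capitals, shown because it has the highest level: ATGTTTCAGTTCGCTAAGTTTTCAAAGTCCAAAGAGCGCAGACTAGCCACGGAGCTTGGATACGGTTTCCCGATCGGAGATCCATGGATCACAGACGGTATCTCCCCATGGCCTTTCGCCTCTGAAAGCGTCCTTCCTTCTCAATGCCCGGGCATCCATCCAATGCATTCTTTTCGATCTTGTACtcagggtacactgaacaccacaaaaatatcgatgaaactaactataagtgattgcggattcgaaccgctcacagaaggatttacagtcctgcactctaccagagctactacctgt
rpl16, the first 300 of its 540 bases (MT 23285 to 23824, plus strand), with the 134 bases that it shares with the end of rps3 in capitals, shown because the neighbouring rps3, rpl16 and nad9 fell with Glc: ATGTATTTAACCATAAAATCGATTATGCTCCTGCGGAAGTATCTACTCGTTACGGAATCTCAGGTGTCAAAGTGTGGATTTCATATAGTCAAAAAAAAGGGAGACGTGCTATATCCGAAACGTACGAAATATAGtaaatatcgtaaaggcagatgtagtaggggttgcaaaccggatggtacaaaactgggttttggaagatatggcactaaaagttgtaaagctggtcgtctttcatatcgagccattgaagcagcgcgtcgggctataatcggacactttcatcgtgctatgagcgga
rps12, the first 300 of its 378 bases (MT 288446 to 288823, plus strand), with 9 of its 12 annotated C-to-U editing sites in capitals, the whole gene identical in the genome to chromosome 2, 3270410 to 3270787: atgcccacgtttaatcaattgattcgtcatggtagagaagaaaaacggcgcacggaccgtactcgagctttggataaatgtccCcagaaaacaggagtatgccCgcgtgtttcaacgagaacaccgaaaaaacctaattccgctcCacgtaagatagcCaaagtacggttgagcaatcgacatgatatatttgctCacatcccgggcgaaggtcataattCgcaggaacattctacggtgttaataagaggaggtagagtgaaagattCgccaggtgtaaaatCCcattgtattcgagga
atp9, MT 270961 to 271185, minus strand, with its 5 annotated editing sites in capitals, identical in the genome to chromosome 2, 3251856 to 3252080: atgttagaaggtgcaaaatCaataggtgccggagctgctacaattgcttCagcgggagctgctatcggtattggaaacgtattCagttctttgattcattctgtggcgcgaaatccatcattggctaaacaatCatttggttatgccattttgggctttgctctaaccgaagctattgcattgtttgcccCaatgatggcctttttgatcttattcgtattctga
ORF106A, the first 300 of its 321 bases (MT 261623 to 261943, minus strand), no capitals, the whole ORF the same as ORF106G and as chromosome 2, 3371832 to 3372152: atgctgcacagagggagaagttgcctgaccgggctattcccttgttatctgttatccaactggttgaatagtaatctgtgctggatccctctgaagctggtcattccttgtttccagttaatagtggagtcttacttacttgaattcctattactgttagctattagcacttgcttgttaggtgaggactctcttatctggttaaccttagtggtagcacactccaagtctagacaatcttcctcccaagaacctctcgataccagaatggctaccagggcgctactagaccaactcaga
nad5B, MT 360107 to 360128, plus strand, no capitals, an exon of 22 bases and the shortest member: gatatgatgattggtttaggta

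The members together made up 0.0773% to 0.157% of all TPM in the 14 libraries compared. Between 71 and 92 of the 122 members were above 0 in a library, and 7 were listed at 0 in all 16 libraries, among them the ribosomal protein genes rps4 and rps7 and the short exon nad5B. The mean over the 14 libraries was above 10 TPM for 16 members, between 1 and 10 TPM for 45, and no more than 1 TPM for 61. Of the 16 most abundant, 10 had a known function. ORF107A, the most abundant member by its mean, was alone 21.7% to 39.3% of the summed member TPM (median 30.2%), and the 5 most abundant members together were 60.6% to 68.2%. ORF107A overlaps rrn26 on the opposite strand over 185 of its 324 bases. No source used here gives the strand setting of the quantification, so RNA of ORF107A and of rrn26 cannot be told apart. Of the protein genes with a known function, the highest were atp4, a subunit of ATP synthase, rps12 and rpl16, of the small and the large mitochondrial ribosomal subunit.

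ORF107A stood at 272.7, 201.3, 307.24 and 291.78 TPM with Glc. It stood at 385.4, 203.9, (429.09) and 356.89 TPM with ABA, and at 507.18, 505.5, (241.63) and 403.6 TPM with ABA + Glc. In control seeds it stood at 487.0, 309.04, 288.62 and 307.49 TPM. In the 14 libraries compared its share of the member total was 35.9% to 39.3% with ABA + Glc. This lay above the 26.9% to 32.3% with Glc, the 21.7% to 32.4% with ABA and the 26.2% to 31.6% in control seeds. Both left-out libraries went against this. The share was 26.0% in ABA + Glc replicate 3, below all Glc libraries, and 36.0% in ABA replicate 3, inside the ABA + Glc range. By contrast, ORF107H, an abundant ORF at MT 94017 to 94397, hardly varied and averaged 81.75 ± 4.86 TPM with Glc, 83.22 ± 2.61 TPM with ABA, 78.45 ± 2.66 TPM with ABA + Glc and 79.93 ± 4.87 TPM in control seeds. ORF149, which lies upstream of nad4L, was at 29.38 to 47.66 TPM with Glc, 40.81 to 58.43 TPM with ABA, 45.49 to 53.73 TPM with ABA + Glc and 43.84 to 62.44 TPM in control seeds.

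Chromosome 2 of Arabidopsis carries a large insertion of mitochondrial DNA near its centromere, so the same RNA can match a member and a nuclear gene. Of the 112 members that could be placed on the reference by name, 102 had a nuclear match of at least 90% identity, and the best was on chromosome 2 for 92 of them. For 54 members, 17 of them with a known function, a nuclear gene of the expression files lay on a copy of at least 95% identity over at least 50% of the member. Among these 17 pairs the nuclear gene had the higher control mean in 8, the member in 6, and the values were equal in every library in 3, rps12 with AT2G07675, atp8 with AT2G07707 and ccmC with AT2G07771. The median level of the 17 was 1.4 TPM, against 5.91 TPM for the 21 members with a known function and no such pair. Genes of proteins that mitochondria need stood near 0 under their ATMG identifier while the copy carried signal. For atp9, which encodes the membrane ring of ATP synthase, the control mean was 0.07 TPM, against 62.89 TPM for AT2G07671. For cob, the cytochrome b subunit of complex III, it was 0.10 TPM, against 2.78 TPM for AT2G07727. For rps7 it was 0 TPM, against 15.37 TPM for AT2G07696, and for nad3, a complex I subunit, 6.86 TPM, against 40.13 TPM for AT2G07751. The nad3 mean came from control replicate 2 alone, at 27.46 TPM, with the other 15 libraries listed at 0. A low value of such a member therefore cannot be told apart from an assignment of its RNA to the nuclear identifier. Of the 48 members that did not pass the filter on low values, 29 had a nuclear gene on a copy, as had 6 of the 7 with a known function, the other being nad5B. These nuclear genes were looked at after their values had been seen.

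**Figure D1:**
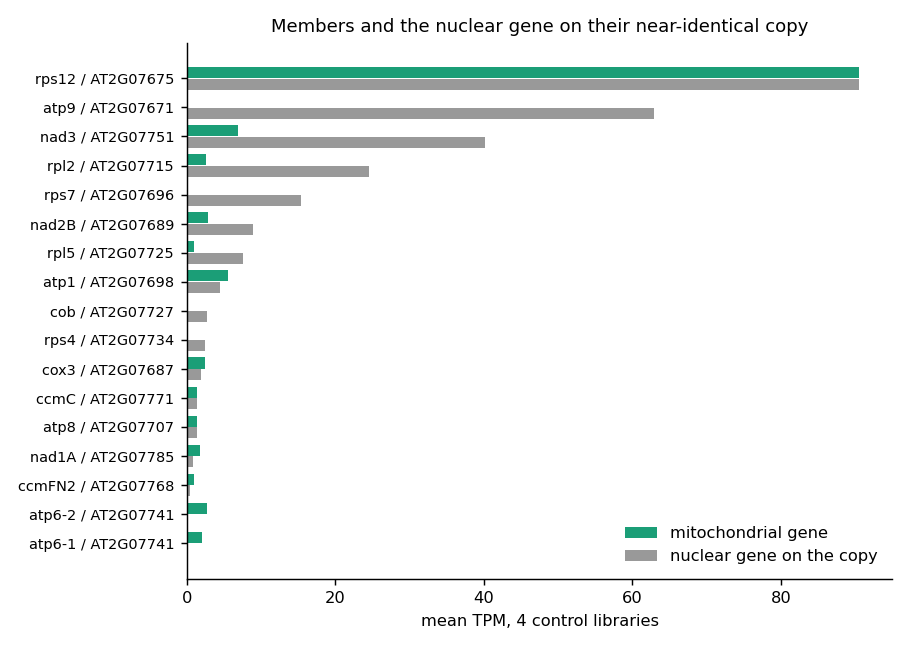
Mean TPM over the 4 control libraries of the 17 members with a known function (green bars) and of the nuclear gene on the copy of each (grey bars). The bars of atp9 and rps7 lie near 0 while AT2G07671 and AT2G07696 lie at 62.89 and 15.37 TPM, and rps12 and AT2G07675 share every value.

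With Glc, the summed level of the members was lower than in control seeds and the 2 groups did not overlap. The sums were 1015.3, 749.7, 1013.7 and 902.5 TPM with Glc, against 1541.5, 1181.1, 1092.2 and 1018.7 TPM in control seeds. The highest Glc library lay just under the lowest control library. As a share of all TPM in each library the groups overlapped, at 0.0773% to 0.105% with Glc and 0.104% to 0.157% in control seeds. The mean sums were 920.3 ± 125 and 1208 ± 232 TPM (SD, n = 4 each), a ratio of 0.762. With each library left out in turn this ratio was 0.724 to 0.839. Without ORF107A the ratio was 0.758 and the groups overlapped. With ABA the sums were 1433.0, 941.0, (1191.4) and 1099.9 TPM, a ratio of 0.958 to control that lay within the spread. With ABA + Glc they were 1325.2, 1286.1, (931.0) and 1124.3 TPM, 1.03 times the control mean and 1.35 times the Glc mean. The ABA + Glc and Glc libraries did not overlap, except that the left-out ABA + Glc replicate 3, at 931.0 TPM, lay inside the Glc range. Without ORF107A the ABA + Glc to Glc ratio was 1.19 and the groups overlapped. The plastid-encoded genes, for comparison, summed to 0.733 times control with Glc, with groups that overlapped, and to 1.25 times Glc with ABA + Glc, with groups that did not.

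**Figure D2:**
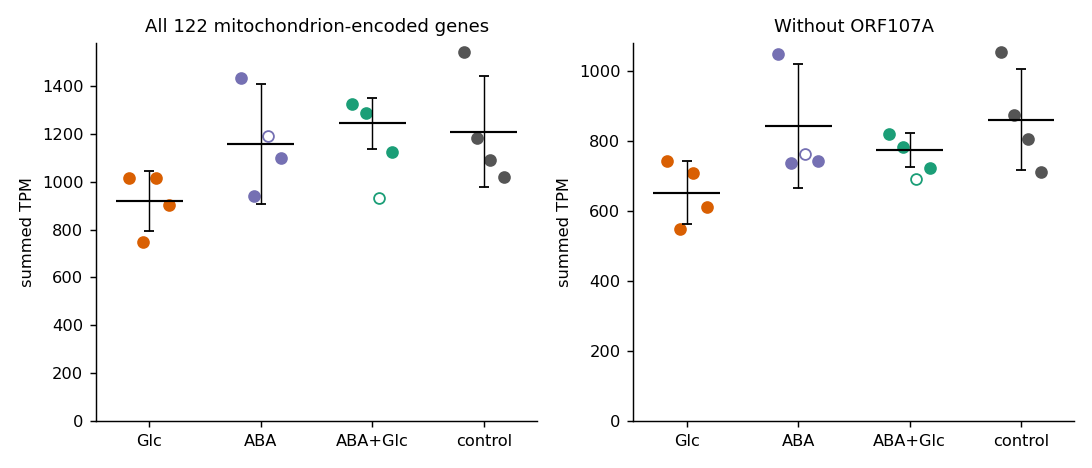
Summed TPM of the 122 members, and of the members without ORF107A, in each library by treatment, filled points for the 14 libraries compared and open points for the others, bars for the mean ± SD of the filled points. In the sum of all members the 4 Glc libraries lie at 749.7 to 1015.3 TPM, under the control libraries at 1018.7 to 1541.5 TPM. As shares of all TPM in each library, which are not drawn, these groups overlap.

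By role, the ribosomal protein genes summed to 101.1 to 168.5 TPM with Glc and 170.2 to 293.7 TPM in control seeds. These groups did not overlap, but the highest Glc library lay just under the lowest control library. Nearly all of each sum came from rpl16, rps12 and rps3, which are given singly below, and rps12 shared every value with AT2G07675. Their means were 141.78 ± 30.2 TPM with Glc, 209.87 ± 51 TPM with ABA, 219.97 ± 16 TPM with ABA + Glc and 223.32 ± 54.1 TPM in control seeds. The complex I genes averaged 103.85 ± 24.0 TPM with Glc, 130.67 ± 46.2 TPM with ABA, 107.41 ± 14.2 TPM with ABA + Glc and 137.32 ± 33.2 TPM in control seeds. The complex V genes averaged 121.37 TPM with Glc, 153.53 TPM with ABA, 120.37 TPM with ABA + Glc and 165.45 TPM in control seeds. Most of this level was atp4 alone, at 119.76 to 192.36 TPM in control seeds. The sum leaves out the nuclear identifier on the atp9 copy. Complex IV and cytochrome c maturation genes were low throughout, with sums of 12.56 to 14.16 TPM and of 16.8 to 20.64 TPM over the treatment means. Annotated editing sites, at which RNA can differ from the genome, numbered 51 in ccmB, 34 in ccmC and 0 in cox1. Their effect on the assignment of reads, and so on levels compared between genes, was not tested. The ORFs averaged 512.25 ± 63.2 TPM with Glc, 616.4 ± 134.8 TPM with ABA, 750.87 ± 74.8 TPM with ABA + Glc and 634.52 ± 138.4 TPM in control seeds. ORF107A, opposite rrn26, was the largest part of the ORF sum in each library. Of the left-out libraries, ABA replicate 3 was at 728.2 TPM. ABA + Glc replicate 3 was at 532.1 TPM, inside the Glc range of 419.8 to 562.6 TPM.

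Each gene was then tested in a limma model over all genes, on log2(TPM + 0.5), and was called where the adjusted p was under 0.05 and the difference at least 0.289 (1.22-fold). Of the 122 members, 74 passed the filter on low values, 31 with a known function and 43 ORFs, so the counts below leave out 48 members. Counts at an unadjusted p under 0.05 are given below without the share of all genes at that cutoff. They therefore do not set members or listed nuclear genes apart from other genes.

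The comparison of Glc with control asks what the sugar alone did in sweet1 seeds. With Glc 3 of 74 members fell, nad9, rps3 and rpl16, where 2.95% of all 17498 genes tested fell, and no member rose, where 1.14% of all genes rose. The count of falls was thus near the share over all genes. At an unadjusted p under 0.05, 12 members were lower and 0 higher. The median difference of the 74 was −0.285, against −0.003 over all genes, and 59 of them were below 0. The 3 called genes lie in a row on the plus strand of the mitochondrial genome. rps3 (MT 20165 to 23418) ends inside rpl16 (MT 23285 to 23824), with the 134 shared bases in capitals above, and nad9 (MT 24665 to 25237) begins after a gap of 840 bases. rps3 and rpl16 encode proteins of the small and of the large ribosomal subunit, and nad9 encodes a subunit of the part of complex I that faces the matrix.

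nad9 stood at 14.41, 10.25, 16.73 and 14.41 TPM with Glc, against 22.1, 23.07, 20.22 and 18.6 TPM in control seeds. All Glc libraries lay below all control libraries, and the difference was −0.589 (SE 0.14, adjusted p = 0.0186). rps3 stood at 24.8, 14.72, 28.36 and 26.77 TPM with Glc, against 49.53, 44.02, 34.54 and 28.75 TPM in control seeds. Its groups did not overlap either, by a margin of less than 1 TPM, and the difference was −0.728 (SE 0.197, adjusted p = 0.0352). rpl16 stood at 52.74, 34.12, 78.57 and 61.7 TPM with Glc, against 112.19, 100.8, 78.83 and 68.38 TPM in control seeds. Here Glc replicate 3 lay inside the control range, and the difference was −0.696 (SE 0.201, adjusted p = 0.0485). The differences kept their sign with any library left out, but adjusted p-values lay close to the threshold. Without control replicate 1 or 2, nad9 had a difference of −0.563 or −0.543 and an adjusted p of 0.0556 or 0.0573. For rps3 the difference was −0.607 without control replicate 1 (adjusted p = 0.11), −0.663 without control replicate 2 (0.096), −0.765 without Glc replicate 1 (0.0629) and −0.52 without Glc replicate 2 (0.0748). rpl16 passed in 2 of the 14 fits with a library left out. Its difference was −0.581 without control replicate 1 (adjusted p = 0.141) and −0.474 without Glc replicate 2 (0.0985), and it stayed at −0.696 when an ABA or ABA + Glc library was left out, with an adjusted p of 0.0512 to 0.0595. With all 16 libraries rps3 alone stayed called, while nad9 and rpl16 had the same differences and an adjusted p of 0.0743 and 0.061.

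**Figure D3:**
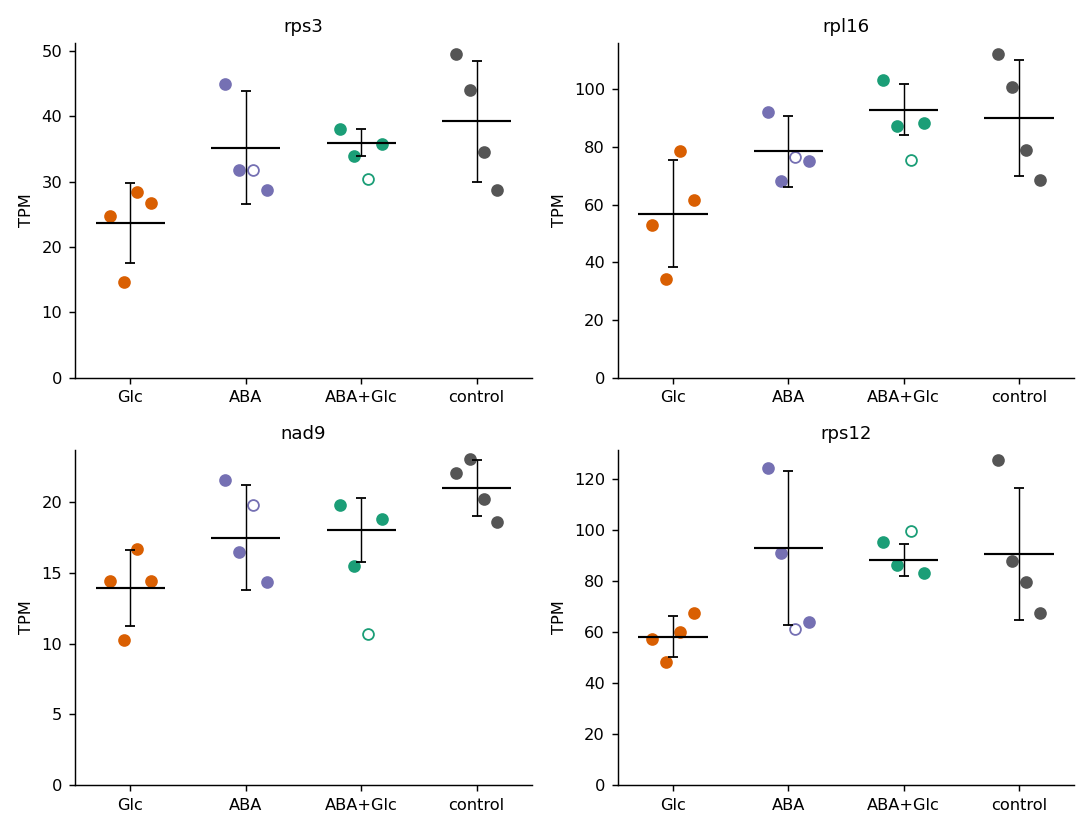
TPM of rps3, rpl16, nad9 and rps12 in each library by treatment, filled points for the 14 libraries compared, open points for the others, bars for the mean ± SD of the filled points. For nad9 the Glc libraries at 10.25 to 16.73 TPM lie under the control libraries at 18.6 to 23.07 TPM.

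The next ribosomal protein gene, rps12, was not called. It stood at 57.09, 48.14, 59.83 and 67.43 TPM with Glc, against 127.36, 87.94, 79.55 and 67.25 TPM in control seeds, a difference of −0.604 (SE 0.188, adjusted p = 0.0646). The highest Glc library and the lowest control library lay within 1 TPM of each other. rps12 lies 45 bases after nad3 (MT 288044 to 288400), which was listed at 0 in 15 libraries. All 4 ribosomal protein genes tested were below 0, with a median of −0.65, and rpl2, the lowest of them in level, had a difference of −0.32 (adjusted p = 0.573).

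Most respiratory genes had values below 0, and 1 of them passed. All 12 complex I members tested were below 0 with Glc, with a median of −0.296, and nad9 was the 1 that passed. These members are fewer separate genes, since the exon pieces of nad1, of nad2 and of nad5 are counted singly. Of complex V, 4 of 5 were below 0. atp4, which encodes part of the stalk of ATP synthase, stood at 144.49, 98.35, 122.69 and 81.9 TPM with Glc, against 157.79, 145.07, 192.36 and 119.76 TPM in control seeds. Its groups overlapped and the difference was −0.469 (SE 0.17, adjusted p = 0.114). The 3 complex IV genes, which encode subunits of cytochrome c oxidase, had differences of −0.41 (cox3), −0.16 (cox1) and 0.00 (cox2). Of the 5 cytochrome c maturation genes 3 were below 0. For ccmFN1, one of the genes for the haem attachment machinery, the difference was −0.375 (adjusted p = 0.257), and for matR, the maturase gene, −0.118 (adjusted p = 0.672). Among the abundant ORFs, ORF106F, upstream of nad1B, had −0.507 (adjusted p = 0.12), ORF111D, beside the ribosomal RNA gene rrn5, −0.453 (adjusted p = 0.0823) and ORF107H 0.03 (adjusted p = 0.761). None of these passed. Of the 16 members above 10 TPM, 15 were below 0, with a median of −0.367.

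The nuclear identifier on the atp9 copy fell as well. AT2G07671 stood at 42.71, 35.55, 51.58 and 46.24 TPM with Glc, against 71.56, 65.11, 62.97 and 51.91 TPM in control seeds. The groups lay apart by less than 1 TPM, and the difference was −0.513 (adjusted p = 0.0213). Its adjusted p was 0.0712 without control replicate 1, 0.0565 without control replicate 2, 0.0548 without Glc replicate 1 and 0.0559 without Glc replicate 2. With AT2G07671 and atp9 added together the difference was −0.512 (adjusted p = 0.0208). Over the 30 tested nuclear genes on copies, 2 fell and 0 rose, where 2.95% of all genes fell. The other was AT2G07674, at 2.958 ± 0.573 TPM with Glc and 4.95 ± 0.834 TPM in control seeds (SD, n = 4 each), a difference of −0.659 (adjusted p = 0.0179), and with all 16 libraries it was not called (adjusted p = 0.112).

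**Figure D4:**
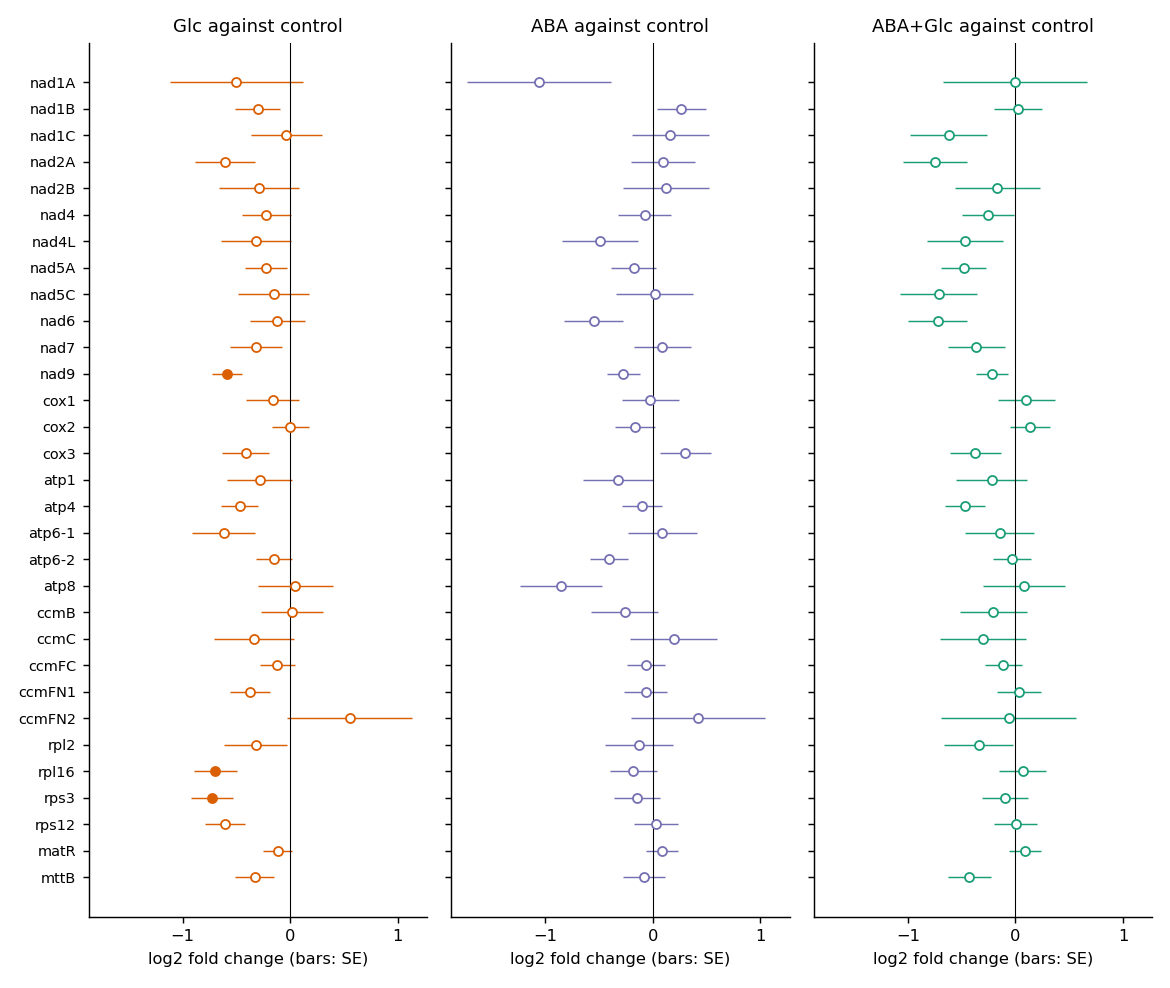
Difference of each tested member with a known function in log2(TPM + 0.5), Glc, ABA and ABA + Glc each against control, filled points for called genes and bars for the SE. With Glc 28 of 31 lie below 0, and the filled points are nad9, rps3 and rpl16.

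The comparison of ABA with control asks what the hormone did while germination was held back. ABA changed the transcriptome widely, with 10.4% of all genes higher and 13.3% lower, but 2 of 74 members rose and 0 fell. At an unadjusted p under 0.05, 3 were higher and 2 lower, the median was 0.022 against −0.002 over all genes, and 36 of 74 were below 0. Both called members are the identical ORFs ORF106A and ORF106G (MT 53104 to 53424), which also shared every value with the nuclear AT2G07701 and so count as 1 measurement. They stood at 1.13, 0.67, (0.37) and 1.64 TPM with ABA, against 0.49, 0.51, 0.0 and 0.37 TPM in control seeds, a difference of 0.977 (SE 0.298, adjusted p = 0.0181). The groups compared lay apart, but the left-out ABA replicate 3 lay inside the control range. The pair was above 0.5 TPM in 7 of the 14 libraries, among them all 3 ABA libraries, so that it passed the filter only through the group in which it was high, and with all 16 libraries it was not tested. Without control replicate 3, listed at 0, the adjusted p was 0.0501.

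No member with a known function passed with ABA. The 12 complex I members, exon pieces counted singly, were split, 6 above and 6 below 0, and nad9 had −0.273 (adjusted p = 0.18). nad1B, an exon piece of a complex I gene, stood at 71.78, 33.39, (34.95) and 43.22 TPM with ABA, against 51.93, 34.86, 36.3 and 35.15 TPM in control seeds. These groups overlapped, with a difference of 0.27 (adjusted p = 0.394). rps3, rpl16 and rps12 had differences of −0.15, −0.18 and 0.03, and atp4 of −0.10. The lowest complex V value was that of atp8, another stalk subunit, at −0.853 (SE 0.379, adjusted p = 0.0948), from levels of 0.0 to 1.17 TPM with ABA and 1.01 to 1.81 TPM in control seeds. With all 16 libraries the identical ORFs ORF139A and ORF139B, named after their values were seen, rose in place of the pair above (0.729, adjusted p = 0.0476), against 0.601 and an adjusted p of 0.126 with 14.

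With ABA + Glc, 0 of 74 members rose and 0 fell against control, where 6.95% of all genes rose and 10.1% fell. At an unadjusted p under 0.05, 4 members were higher and 6 lower, the median was −0.056 against 0.001 over all genes, and 42 of 74 were below 0. Complex I had 11 of its 12 members, exon pieces counted singly, below 0, with a median of −0.416. nad2A, an exon piece of a complex I gene, stood at 6.01, 1.5, (5.92) and 2.87 TPM with ABA + Glc, against 7.18, 4.81, 4.59 and 5.36 TPM in control seeds. The groups overlapped and the difference was −0.744 (SE 0.298, adjusted p = 0.0816). nad6, a membrane subunit of complex I, stood at 0.7, 0.88, (0.96) and 1.59 TPM with ABA + Glc, against 2.6, 1.48, 3.01 and 1.31 TPM in control seeds. It had −0.724 (SE 0.277, adjusted p = 0.0689), and with all 16 libraries it fell (−0.737, adjusted p = 0.035). atp4 stood at 118.45, 106.79, (72.11) and 103.49 TPM with ABA + Glc, all below the 119.76 TPM of the lowest control library. Its difference was −0.468 (SE 0.184, adjusted p = 0.0764), and with all 16 libraries it fell (−0.618, adjusted p = 0.0329). With those 16 libraries ORF127, named after its values were seen, also fell and ORF139A and ORF139B rose. The ribosomal protein genes lay near control, with differences of 0.07 for rpl16, −0.09 for rps3 and 0.00 for rps12.

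Between ABA + Glc and ABA 0 of 74 members passed in either direction, where 0.732% of all genes rose and 1.91% fell. At an unadjusted p under 0.05, 3 were higher and 9 lower, and the median was −0.157 against −0.001 over all genes. ORF107A had a difference of 0.627 (SE 0.227, adjusted p = 0.179). Its ABA + Glc libraries at 403.6 to 507.18 TPM lay above its ABA libraries at 203.9 to 385.4 TPM, and both left-out libraries went against this, at 241.63 TPM with ABA + Glc and 429.09 TPM with ABA. For ORF240A the difference was 0.42 (adjusted p = 0.451), for nad2A −0.837 (adjusted p = 0.205) and for cox3 −0.677 (adjusted p = 0.193). rps3, rpl16 and rps12 had differences of 0.06, 0.25 and −0.03.

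The comparison of ABA + Glc with Glc gives the effect of the hormone where the sugar was present. In it 3 of 74 members rose, ORF107A, ORF240A and rpl16, where 5.43% of all genes rose, and 0 fell, where 6.01% fell. At an unadjusted p under 0.05, 10 were higher and 1 lower, the median was 0.148 against 0.002 over all genes, and 24 of 74 were below 0. The Glc libraries are the same as those compared with control above, so the 2 comparisons are not independent. For rpl16 the ABA + Glc libraries had 103.02, 87.27, (75.35) and 88.42 TPM, against the 34.12 to 78.57 TPM of the Glc libraries. The 14 libraries lay apart, ABA + Glc replicate 3 lay inside the Glc range, and the difference was 0.763 (SE 0.217, adjusted p = 0.0242). Without Glc replicate 1 the adjusted p was 0.052, and it was 0.0948, 0.0509 or 0.0551 when replicate 1, 2 or 4 of ABA + Glc was taken out. With the libraries printed above, ORF107A had a difference of 0.825 (SE 0.213, adjusted p = 0.0136). It missed the threshold without ABA + Glc replicate 1 (adjusted p = 0.0567) or 2 (0.0561) and with all 16 libraries (0.129).

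ORF240A, at MT 346556 to 347278, passed in all 14 fits with a library left out, unlike the other called members. It stood at 12.92, 11.98, (14.68) and 12.49 TPM with ABA + Glc, against 6.19, 4.66, 8.79 and 6.72 TPM with Glc. All 4 ABA + Glc libraries lay above all Glc libraries, and the difference was 0.901 (SE 0.226, adjusted p = 0.0112), or an adjusted p of 0.00283 with all 16 libraries. With a library left out its adjusted p was 0.00508 to 0.0423. With ABA it stood at 10.41, 6.34, (9.88) and 11.67 TPM and in control seeds at 14.1, 9.35, 11.94 and 7.24 TPM, so its Glc difference from control was −0.645 (SE 0.209, adjusted p = 0.0749) with groups that overlapped. rps12 and rps3 had ABA + Glc libraries above the Glc libraries and differences of 0.606 and 0.634 (adjusted p = 0.054 for each). With all 16 libraries rps12 passed (adjusted p = 0.0334). atp4 differed by 0.00, since its ABA + Glc and Glc levels were alike, and nad9 by 0.37 (adjusted p = 0.113).

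**Figure D5:**
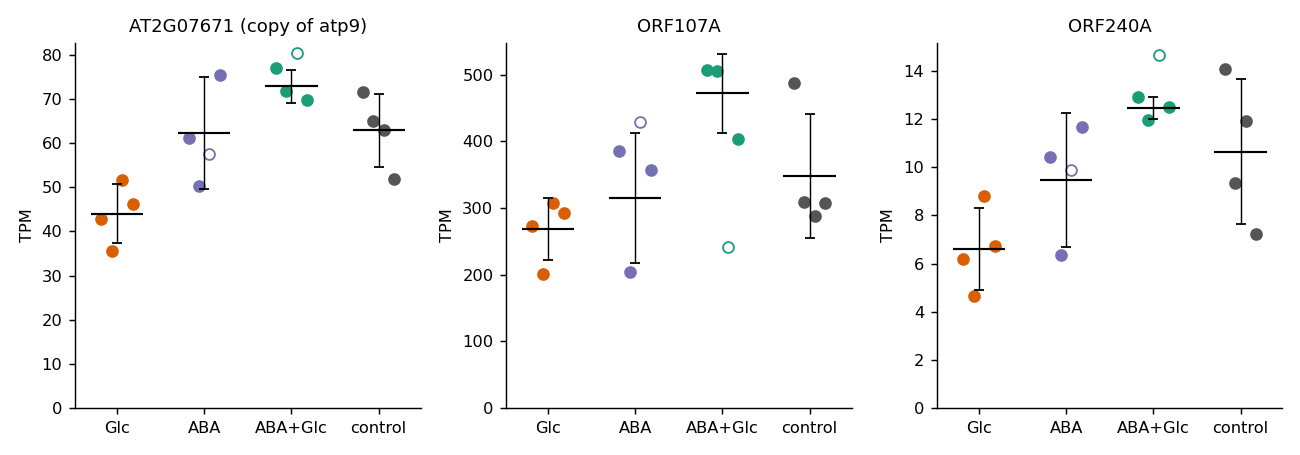
TPM of AT2G07671, ORF107A and ORF240A in each library by treatment, filled points for the 14 libraries compared, open points for the others, bars for the mean ± SD of the filled points. ORF240A lies at 11.98 to 14.68 TPM in the 4 ABA + Glc libraries and at 4.66 to 8.79 TPM in the Glc libraries, while the open ABA + Glc point of ORF107A, at 241.63 TPM, lies inside its Glc range.

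Among the nuclear genes on copies, 5 of 30 rose in this comparison, where 5.43% of all genes rose, and 1 of them, AT2G07659, was not called with all 16 libraries (adjusted p = 0.186). AT2G07671, on the atp9 copy, stood at 77.07, 71.85, (80.54) and 69.74 TPM with ABA + Glc, against 42.71, 35.55, 51.58 and 46.24 TPM with Glc. The groups lay well apart, the difference was 0.733 (adjusted p = 0.00113), and it passed in all 14 fits with a library left out. AT2G07696, on the rps7 copy, averaged 17.28 ± 1.47 TPM with ABA + Glc and 10.77 ± 2.16 TPM with Glc (SD, n = 3 and 4), a difference of 0.678 (adjusted p = 0.0119), and without ABA + Glc replicate 2 its adjusted p was 0.0561. With members and nuclear genes on their copies added together, 7 of 84 sets rose, ORF107A, ORF240A, rpl16 and the sets with atp9, rps7, ORF161 and ORF199. These last 4 members were not tested on their own, and rps7 was listed at 0 throughout, so the rises of their sets were those of AT2G07671, AT2G07696, AT2G07719 and AT2G07739 for nearly all of the level.

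The interaction asks whether the Glc effect with ABA differed from the Glc effect without it. Of 74 members 0 passed in either direction, where 1.79% of all genes passed upward and 1.94% downward. At an unadjusted p under 0.05, 8 members were above 0 and 0 below, and the median was 0.103 against 0.002 over all genes. The members called with Glc or between ABA + Glc and Glc had interaction terms of 1.06 (ORF240A, SE 0.319, adjusted p = 0.0764), 0.986 (ORF107A, adjusted p = 0.0824), 0.944 (rpl16, adjusted p = 0.105), 0.783 (rps3, adjusted p = 0.171) and 0.645 (nad9, adjusted p = 0.111). With 14 libraries a Glc effect that differed with ABA was thus not shown for any of them, while with all 16 libraries ORF240A passed. For AT2G07671 the term was 0.756 (adjusted p = 0.0353), which passed in 4 of the 14 fits with a library left out, with an adjusted p of up to 0.0935.

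Few nuclear genes for partners of these proteins passed. Of 36 nuclear genes for subunits of complexes I, III, IV and V and for cytochrome c, 0 rose and 0 fell with Glc. Over all genes 1.14% rose and 2.95% fell, so few calls would be looked for among 36. Their median was 0.03, and 4 had an unadjusted p under 0.05, all higher. With ABA 1 of the 36 passed, where 10.4% of all genes rose and 13.3% fell. Of the 36, 18 were above and 1 below 0 at an unadjusted p under 0.05. The 1 that passed was GAMMA CAL2, a carbonic anhydrase-like subunit of complex I, which rose (0.345, adjusted p = 0.000127). This call was lost with all 16 libraries, where the difference of 0.284 lay under the minimum fold (adjusted p = 0.0288), and with every library scaled to equal sums. For ABA + Glc 0 of the 36 passed in any comparison, and the shares of all genes called are given above for each. Those with an unadjusted p under 0.05 were 6 above and 2 below 0 against control, 0 above and 2 below against ABA, and 2 above and 3 below against Glc. GAMMA CAL2 averaged 96.12 ± 4.42 TPM with ABA and 75.6 ± 4.55 TPM in control seeds (SD, n = 3 and 4). Of 17 nuclear genes for mitochondrial transcription, splicing and editing, PMH1, an RNA helicase that assists splicing, fell with ABA (−0.314, adjusted p = 2.57e-05), where 13.3% of all genes fell. PMH1 averaged 159.0 ± 7.45 TPM with ABA and 197.7 ± 7.62 TPM in control seeds (SD, n = 3 and 4). None of the 17 was called with Glc, where 0 had an unadjusted p under 0.05. The plastid-encoded genes gave 32 lower calls of 87 tested with Glc, where 2.95% of all genes fell, with a median of −0.571. They gave 25 higher calls between ABA + Glc and Glc, where 5.43% of all genes rose. Whether members and plastid genes differed in response was not tested.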

How the data were processed

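RNA-seq libraries of whole germinating sweet1 seeds were made with a poly(A) mRNA kit. According to the study's methods and processing notes, the authors trimmed reads with Trimmomatic 0.38, estimated abundances with kallisto 0.44.0 on primary transcripts and tested with sleuth. The deposited values carry the header TPM, but sum to 951008 to 1053766 per library, so they were treated as a score on the TPM scale, rescaled by the authors in a way that no source used here gives. The fit had been planned for TPM and was run unchanged. No counts were used, and no interval for depth could be given.

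Values were analysed as log2(TPM + 0.5) with limma 3.58.1 in R 4.3.3 (trended variance, 1 model of the 4 treatment means, 14 libraries). Genes above 0.5 TPM in at least 50% of libraries were tested, and p-values were adjusted by the Benjamini-Hochberg method over all 17498 of them. Differences are first minus second treatment, and on this scale they understate changes of low genes. A gene was called at an adjusted p under 0.05 and at least 1.22-fold (0.2 on the natural log scale). The fitting code was tested on simulated data. No 2 libraries held identical values.

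Named genes were the 38 members with a function, the 5 ORFs of highest mean and up to 3 called ORFs of the largest difference per comparison. Members, lists and tests were chosen with earlier results of these data known. Alternatives were all 16 libraries, the replicate number as a block, pseudocounts of 0.1 and 1, no filter or 10 TPM, scaling to a sum of 1000000, only the groups compared, and each library left out. Members summed with nuclear copies were added after seeing the data. Copies were found with blastn 2.17.0 on TAIR10.1, and tables were handled in Python 3.11.15 with pandas 2.3.3.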

Additional observations from a re-analysis of the deposited data

Results flagged for a closer look

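In 8 of the 160 sets of 4 libraries examined, the values of a named member in 1 treatment, the highest or lowest library lay far from the other 3, and chance gives about 1 in 20. Among abundant members, ORF107A was at 487.0 TPM in control replicate 1, against 288.62 to 309.04 TPM in the other control libraries. nad1B was at 51.93 TPM in the same library, against 34.86 to 36.3 TPM in the others. With Glc, replicate 2 was low for ORF149, at 29.38 TPM against 44.61 to 47.66 TPM, and for ccmFN1, at 6.43 TPM against 10.87 to 11.5 TPM. Glc replicate 1 was high for nad5A, at 2.37 TPM against 1.58 to 1.68 TPM, and for ORF106A and for ORF106G, which have the same values, at 0.7 TPM against 0.21 to 0.23 TPM. With ABA + Glc, atp8 was at 2.83 TPM in replicate 2, against 0.86 to 1.18 TPM.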

How the results depend on the processing

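No called difference changed sign under any setting tried. The count of members that fell with Glc, 3 of 74, was 1 with all 16 libraries, 1 with only the groups compared and 7 with the replicate number as a block (nad9, rps3, rpl16, rps12, atp4, ORF106F and ORF240A). Numbers did not pair the libraries: deviations of same-numbered libraries correlated at −0.065 to 0.123 (median 0.009, 19 pairs, 1 over 0.1), and of the other pairs at −0.149 to 0.106. The count was 0 to 6 with 1 library left out (0 without control replicate 1 or 2, 1 without Glc replicate 1 or 2, and 6 without control replicate 4). Rises with ABA, 2 members, were 0 above 10 TPM, 4 with only the groups compared, 1 with copies summed, and 0 to 4 with 1 library left out. Falls with ABA, 0 members, were 1 with the replicate block, 1 with no filter, and 0 to 5 with 1 library left out. Rises with ABA + Glc against control, 0 members, were 2 with 16 libraries, 3 with the block, 4 with only the groups compared, 2 with copies summed, and 0 to 2 with 1 library left out. Falls, 0 members, were 3 with 16 libraries, 4 with the block, 1 each with no filter, with equal sums and with only the groups compared, and 0 to 2 with 1 library left out. Against ABA, falls, 0 members, were 2 with the block, 2 with only the groups compared, and 0 to 1 with 1 library left out. Against Glc, rises, 3 members, were 6 with the block, 5 above 10 TPM, 5 with no filter, 6 with only the groups compared, 7 of 84 sets with copies summed, and 1 to 5 with 1 library left out. Upward interaction terms, 0 members, were 1 each with 16 libraries, the block and copies summed, and 0 to 2 with 1 library left out. The cause of these changes was not tested.

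With 1 library left out the ratio of summed TPM was 0.724 to 0.839 for Glc to control, 0.844 to 1.06 for ABA to control, 0.979 to 1.13 for ABA + Glc to control, 0.983 to 1.22 for ABA + Glc to ABA and 1.27 to 1.42 for ABA + Glc to Glc. The count of nuclear subunit genes that rose with ABA, 1 (GAMMA CAL2), was 0 with 16 libraries and 0 with equal sums, and that of nuclear RNA genes that fell with ABA, 1, was 2 with equal sums. Of the values of single genes, 3133 of those with a library left out kept their call, 33 gained one and 26 lost one, and under the other settings 1646 kept it, 22 gained one and 9 lost one. Most members lie under 10 TPM, where values of single libraries reach 0 and the fit can miss differences.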
